A study of Arabidopsis thaliana with 3 samples.

Results

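The genes of the abo4 mutant that were measured well enough to compare with the wild type are described here, from 1 library of each genotype. A gene was taken as well-measured when its FPKM, a fragment count divided by the length of the transcript and the size of the library, averaged at least 1 over the 3 libraries of the study. This rule kept 19771 of 33559 loci (58.9%). The first 3 loci just inside this limit had means of 1.00 FPKM (AT1G43886, AT4G30830 and AT4G37295), and the first just outside it, AT1G13150, had a mean of 0.999 FPKM.

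Poly(A) RNA was sequenced from 14-day-old Arabidopsis seedlings of ecotype Col, grown on MS agar plates in long days, and the wild type (Col), abo4 and the T-DNA mutant mms19-1 gave 1 library each. The study set out to compare the effects of mms19 and abo4 on the transcriptome. The abo4 seedlings carried abo4-1, a weak missense allele of ABO4 (POL2A), which encodes the catalytic subunit of DNA polymerase epsilon, so the protein is changed and not removed. Null alleles of ABO4 are embryo lethal. Whole seedlings were ground for each library, and neither the labels nor the methods give the number of plants pooled.

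DNA polymerase epsilon copies the leading strand at replication forks. When forks stall or DNA breaks, the kinases ATR and ATM activate the transcription factor SOG1, the plant counterpart of animal p53, which switches on genes for cell cycle arrest and homologous recombination. ABO4 is also known for roles in gene silencing and in the timing of flowering, where FLC acts as a repressor and FT as the mobile signal that starts flowering.

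Between the 2 libraries most genes differed little. The log2 ratio of abo4 to Col, computed on FPKM + 0.1, had a median of -0.01 over the 19771 genes, with 5th and 95th percentiles of -0.62 and 0.61, and 73.7% of the genes lay within 1.25-fold. A ratio above 1 or below -1 on the log2 scale (2-fold) is counted here as higher or lower. By this rule 379 genes were higher in abo4 (1.92%) and 375 were lower (1.9%), which together is 3.81% of the well-measured genes. Past 4-fold there were 105 higher and 101 lower genes. With a single library per genotype no difference could be checked against replicates. No test between genotypes was made, and what belongs to the genotype and what belongs to the library cannot be told apart. In whole seedlings, fewer cells of a type and less RNA per cell cannot be told apart either.

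The higher and lower genes had the following levels. The 379 higher genes had a median of 1.85 FPKM in Col and 6.25 FPKM in abo4, and 121 of them were below 1 FPKM in Col. The 375 lower genes had a median of 15.03 FPKM in Col and 3.38 FPKM in abo4, and 116 of them were below 1 FPKM in abo4. The Col and abo4 levels are the values that sorted the genes, so Col is the low side of the first set and the high side of the second by construction. The estimated depth of the abo4 library was 0.886 of that of Col, and 1 FPKM at a transcript of 1500 nt stood for about 72.7 reads in Col and 64.4 in abo4. A 95% exact interval for counting error lay wholly past 2-fold at 196 of the higher and 231 of the lower genes. Such intervals cover counting error only and not the variation between plants.

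**Figure D1:**
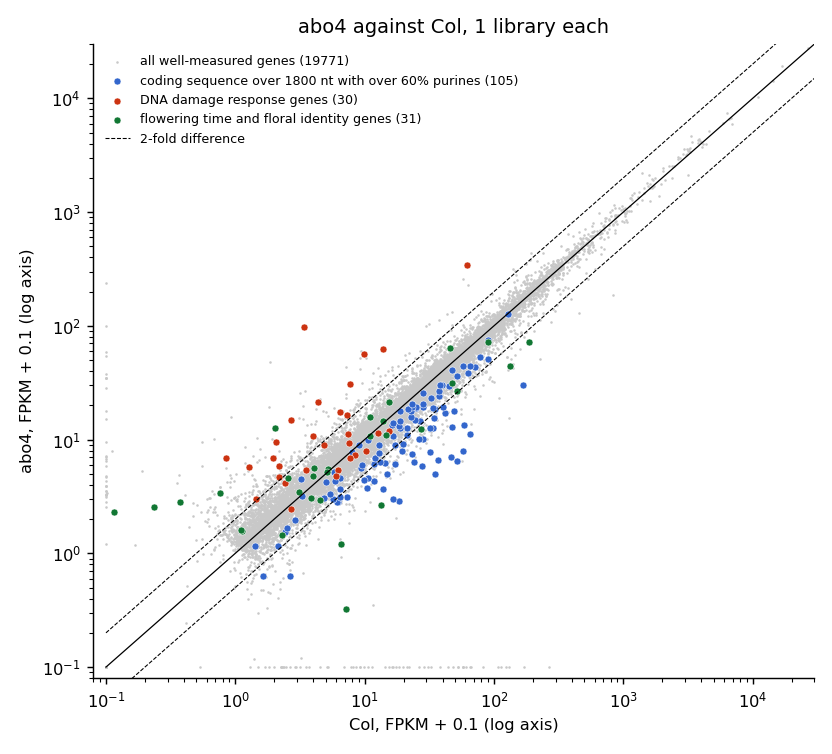
FPKM + 0.1 in abo4 (vertical, log axis) against Col (horizontal, log axis), 1 point per well-measured gene. Grey points are all 19771 genes, and coloured points are the 30 DNA damage response genes, the 31 flowering time and floral identity genes and the 105 genes with a long purine-rich coding sequence. The solid line is equality and the dashed lines are 2-fold differences. Of the 30 DNA damage response genes 22 lie above the solid line, and 104 of the 105 purine-rich genes lie below it.

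The gene of the mutated polymerase was first examined. ABO4 transcript was at 5.03 FPKM in Col and 8.09 FPKM in abo4, a 1.61-fold higher level (95% interval for counting error 1.53 to 1.70). A missense allele need not alter the transcript level, so this value does not check the label. None of the 11 well-measured subunits of the replicative polymerases passed 2-fold in either direction, beside 3.81% of all genes. Their median log2 ratio was 0.20. The subunit furthest above the wild type was POLD4 of DNA polymerase delta, at 35.4 FPKM in Col and 62.6 FPKM in abo4. The subunit furthest below was POLD1, the catalytic subunit of polymerase delta, at 9.33 and 7.78 FPKM. ICU2, the catalytic subunit of polymerase alpha, was at 6.70 and 7.58 FPKM. POL2B, the second gene for a polymerase epsilon catalytic subunit, was at 0.0086 and 0.026 FPKM and did not pass the filter.

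Genes of the DNA damage response formed the group furthest above the wild type among the lists with 10 or more well-measured members. Of 32 listed genes 30 were well-measured, and 17 of these were over 2-fold higher in abo4 and 0 were lower, beside 1.92% higher among all genes. The median log2 ratio of the 30 genes was 1.13. For 15 of them the counting interval lay wholly above 2-fold. Among the 17, NAC044 was below 1 FPKM in Col and passed the filter through the mutant libraries, where it is higher. The count of 17 therefore describes the well-measured members and not the whole list.

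Some members of the list act on the cell cycle. SMR7, the member with the highest ratio and a SIAMESE-related inhibitor of cyclin-dependent kinases, was at 3.31 FPKM in Col and 97.3 FPKM in abo4, 29.4-fold higher (95% interval 23.6 to 36.6). SMR5, of the same family, was at 9.81 and 56.3 FPKM (5.74-fold, 4.24 to 8.03). WEE1, the kinase that holds cyclin-dependent kinases inactive, was at 2.09 and 4.56 FPKM. CYCB1;1, the B-type cyclin that accumulates after DNA damage, was at 3.86 and 10.7 FPKM. WEE1 was thus just past the limit with a log2 ratio of 1.09.

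Among the members that act in homologous recombination or meiosis, several were past 2-fold. BRCA1, a ubiquitin ligase subunit that acts in recombination, was at 4.29 FPKM in Col and 21.4 FPKM in abo4 (4.98-fold, 4.59 to 5.42), while its partner BARD1 was at 4.77 and 8.88 FPKM and stayed under 2-fold. XRI1, an X-ray inducible gene required in meiosis, was at 13.8 and 61.8 FPKM (4.50-fold, 4.18 to 4.84). Together with these, RAD54, a chromatin remodeller of the recombination pathway, reached a log2 ratio of 1.43, and MND1, a cofactor of strand exchange, reached 1.17. GMI1, an SMC-hinge protein of somatic recombination, was at 2.62 and 14.8 FPKM, and GR1, the plant counterpart of CtIP and COM1, was the member just past the limit, at 1.35 and 2.92 FPKM.

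Other members supply nucleotides, coat single strands or signal breaks. TSO2, the small subunit of ribonucleotide reductase that makes deoxynucleotides, was at 61.5 FPKM in Col and 345 FPKM in abo4 (5.60-fold, 5.44 to 5.78), and was the most abundant of the higher members. Its relative RNR2A, which encodes another small subunit, was at 15.3 and 11.8 FPKM, and so the 2 genes stood on opposite sides of equality. PARP2, a poly(ADP-ribose) polymerase, was at 7.63 and 31.0 FPKM. RPA1E, a subunit of the single-strand binding protein RPA, was at 1.84 and 6.85 FPKM. NAC044, a NAC transcription factor close to SOG1 in sequence, was at 0.743 and 6.77 FPKM (9.11-fold, 7.05 to 12.1), and NAC103, also a NAC factor that responds to DNA damage, was at 1.18 and 5.59 FPKM.

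Several members that act in end joining or mismatch repair stood slightly below the wild type. KU70 and KU80, which bind broken ends, had log2 ratios of -0.19 and -0.15. LIG4 and XRCC4, the ligase complex of end joining, had -0.14 and -0.37, and TEB, the polymerase theta of alternative end joining, had -0.15. The mismatch repair gene MSH6 had -0.33. All 8 members below equality in this list therefore lay between -0.14 and -0.37. In the mms19-1 library, compared with the same Col library, SMR7 was at 31.0, SMR5 at 42.4, BRCA1 at 11.1 and TSO2 at 107 FPKM.

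**Figure D2:**
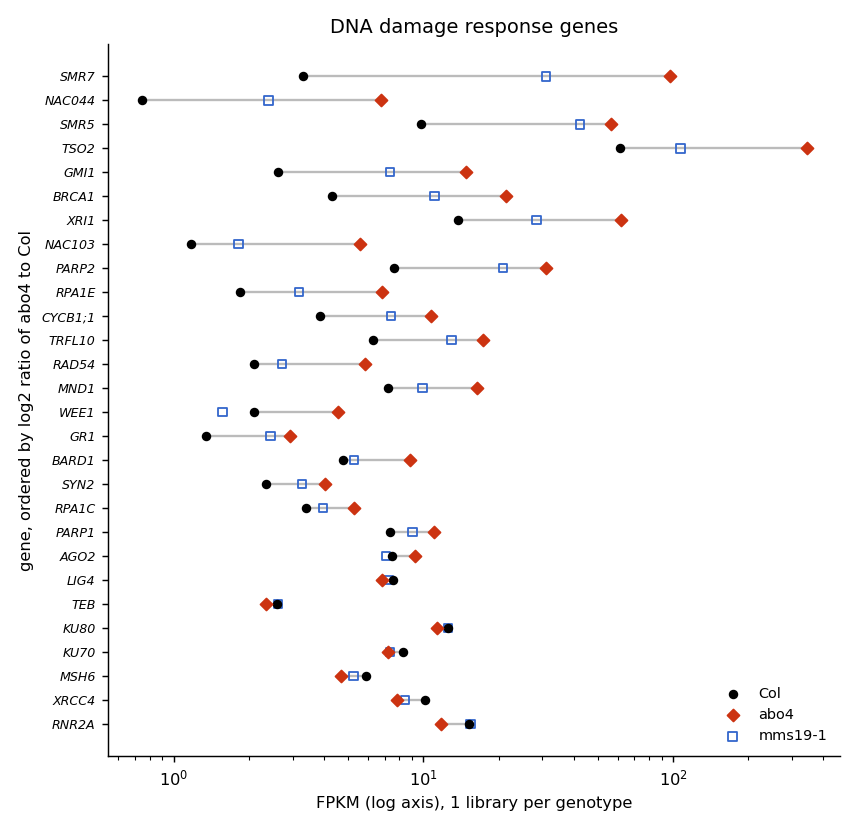
FPKM (horizontal, log axis) of 28 well-measured DNA damage response genes in Col (black circles), abo4 (red diamonds) and mms19-1 (open blue squares), ordered by the log2 ratio of abo4 to Col. The upper 16 genes, from SMR7 at 3.31 and 97.3 FPKM down to GR1 at 1.35 and 2.92 FPKM, are over 2-fold higher in abo4, and the lowest 7 lie slightly below Col.

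The kinases and sensors that act above these genes showed a different pattern. Of 11 well-measured genes 1 was higher and 1 was lower, beside 3.81% of all genes past 2-fold in either direction. ATR was at 1.18 FPKM in Col and 1.23 FPKM in abo4, ATM at 5.34 and 4.11 FPKM, and SOG1 itself at 10.01 and 9.22 FPKM. RAD17, which loads the checkpoint clamp, was at 3.80 and 9.79 FPKM (2.58-fold, 2.29 to 2.90). RAD50, of the MRE11-RAD50-NBS1 complex that detects breaks, was at 14.7 and 4.92 FPKM (2.98-fold lower, 2.78 to 3.20), whereas its partners MRE11 and NBS1 had log2 ratios of -0.32 and -0.34. RAD50 has a long purine-rich coding sequence and belongs to the group described below.

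SOG1 is known to bind a palindrome of CTT and AAG separated by 7 bases of any kind, which reads the same on both strands. The window from 250 bases before to 50 bases after the annotated start held this motif in 10.8% of the 19073 well-measured protein-coding genes. It was found in 10 of the 30 damage response genes (33.3%), that is in 8 of the 17 higher members and in 2 of the other 13. Among all protein-coding genes that were over 2-fold higher in abo4 the share was 18.2% of 325, and among the lower ones 11.4% of 298. Sites upstream of the start are shown for 4 of the higher members that hold the motif, with 8 bases on each side, in the sense of the gene and with the fixed bases of the motif in capitals. The sequences are from the RefSeq TAIR10.1 genome.
SMR7, chr3:10231590-10231618, minus strand: ctaataatCTTcctctgaAAGcttcattc
NAC044, chr3:229002-229030, plus strand: gtatctggCTTggggagcAAGgttagcgg
SMR5, distal site, chr1:2305107-2305135, minus strand: cctagcaaCTTccagaacAAGctacggtc
SMR5, proximal site, chr1:2305043-2305071, minus strand: ttaagaacCTTattaggaAAGtgcgagag
PARP2, chr4:1049662-1049690, plus strand: ttttgtttCTTttaatagAAGagttaaac
The motif of SMR7 begins 43 bases before the start, that of NAC044 65 bases, and the pair of SMR5 96 and 32 bases before it. TSO2, BRCA1 and XRI1 were among the higher members without these letters in the window. A match is a description of the sequence, and binding was not measured.

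Replication and mitotic genes were slightly above the wild type, nearly all below 2-fold. All 21 listed mitotic genes had a positive log2 ratio, with a median of 0.38, and 1 of them passed the limit. The B-type cyclins CYCB1;1 and CYCB1;5, with log2 ratios of 1.45 and -2.31, are not in this list. The listed member past the limit was CDKB1;1, a plant-specific mitotic kinase, at 6.35 FPKM in Col and 14.99 FPKM in abo4. Of 16 replication genes 15 had a positive ratio, with a median of 0.25. RNR1, the large subunit of ribonucleotide reductase, was the only member past 2-fold, at 24.4 and 51.6 FPKM. PCNA1, the sliding clamp, was at 11.8 and 21.1 FPKM, and the helicase subunits MCM2 to MCM7 had log2 ratios between 0.11 and 0.25. Over all 19771 well-measured genes the median was -0.01, 9480 had a positive ratio and 1.92% were over 2-fold higher.

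Flowering time genes differed in both directions. Of 23 well-measured flowering time genes 6 were lower, 1 was higher and 16 lay within 2-fold, beside 1.9% lower and 1.92% higher among all genes. The higher gene, FT, was below 1 FPKM in Col and passed the filter through the mutant libraries, where it is higher. The count of 1 therefore does not describe the whole list. FLC, the MADS-box repressor of flowering, was at 7.03 FPKM in Col and 0.223 FPKM in abo4 (31.6-fold lower, 16.0 to 67.8), which rests on 8.76 estimated reads in abo4. MAF4 and MAF5, close relatives of FLC that lie next to each other on chromosome 5, were at 6.52 and 1.11 FPKM and at 13.3 and 2.54 FPKM. The other relatives stayed within 2-fold, with FLM at 51.3 and 26.6 FPKM, MAF2 at 47.5 and 31.2 FPKM and MAF3 at 14.5 and 10.9 FPKM. All 6 genes of the FLC clade were thus below the wild type.

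TEM1 and TEM2, of the TEMPRANILLO family, and SNZ were the other 3 lower members. TEM1, which represses FT and gibberellin synthesis, was at 134 FPKM in Col and 44.2 FPKM in abo4 (3.02-fold lower, 2.91 to 3.14). TEM2 was at 186 and 72.6 FPKM, and SNZ, an AP2-type repressor, was at 27.3 and 12.2 FPKM. SMZ, the relative of SNZ, was at 4.41 and 2.84 FPKM, and SVP, the partner of FLC, was at 89.8 and 71.2 FPKM. Neither passed 2-fold.

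FT was at 0.274 FPKM in Col and 2.75 FPKM in abo4 (10.05-fold higher, 5.33 to 20.6). It was the only promoter of flowering past the limit. SOC1, the integrator that acts downstream of FT and FLC, was at 45.9 and 63.1 FPKM, and FD, the partner of FT at the shoot apex, was at 3.92 and 5.56 FPKM. GI, which acts upstream of FT, was at 10.97 and 15.6 FPKM. The SPL genes, targets of miR156 that promote flowering, did not move together, with SPL3 at a log2 ratio of 0.48, SPL9 at 0.02 and SPL5 at -0.69.

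Of 15 listed floral organ identity genes 8 were well-measured, and 4 of them were over 2-fold higher and 0 were lower, beside 1.92% and 1.9% among all genes. SEP3 was at 1.93 FPKM in Col and 12.6 FPKM in abo4 (6.53-fold, 5.29 to 8.04). SEP1 was at 0.134 and 2.46 FPKM, and PI, which specifies petals and stamens, was at 0.66 and 3.28 FPKM. SEP2 was at 0.0147 and 2.21 FPKM, and as 1 estimated read stands behind the Col value its ratio of 150 has an interval from 28.3 to 6377. SEP1, SEP2 and PI were below 1 FPKM in Col and passed the filter through the mutant libraries, where they are higher, so neither this count nor the median of the 8 genes describes the whole list. The 7 other members were below the filter, AG, AP1, LFY, AP3, SHP2, STK and CAL, and had log2 ratios between 1.16 and 2.80. Summed over the 15 genes the level was 31.8 FPKM in Col and 56.7 FPKM in abo4.

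Markers of the organs that such genes build were near 0. None of the 7 anther and pollen markers passed the filter. Their summed level was 0.162 FPKM in Col and 0.216 FPKM in abo4, with A9, ATA7 and SPL/NZZ listed at 0 in both libraries. The shoot meristem and boundary markers summed to 49.1 and 59.0 FPKM, and the 4 well-measured members had log2 ratios from 0.12 (CLV1) to 0.56 (STM), with CLV3 listed at 0 in abo4. Their part in the levels of the floral genes was not tested. In mms19-1, FLC was at 1.11, MAF4 at 1.91, TEM1 at 93.0 and FT at 5.17 FPKM.

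**Figure D3:**
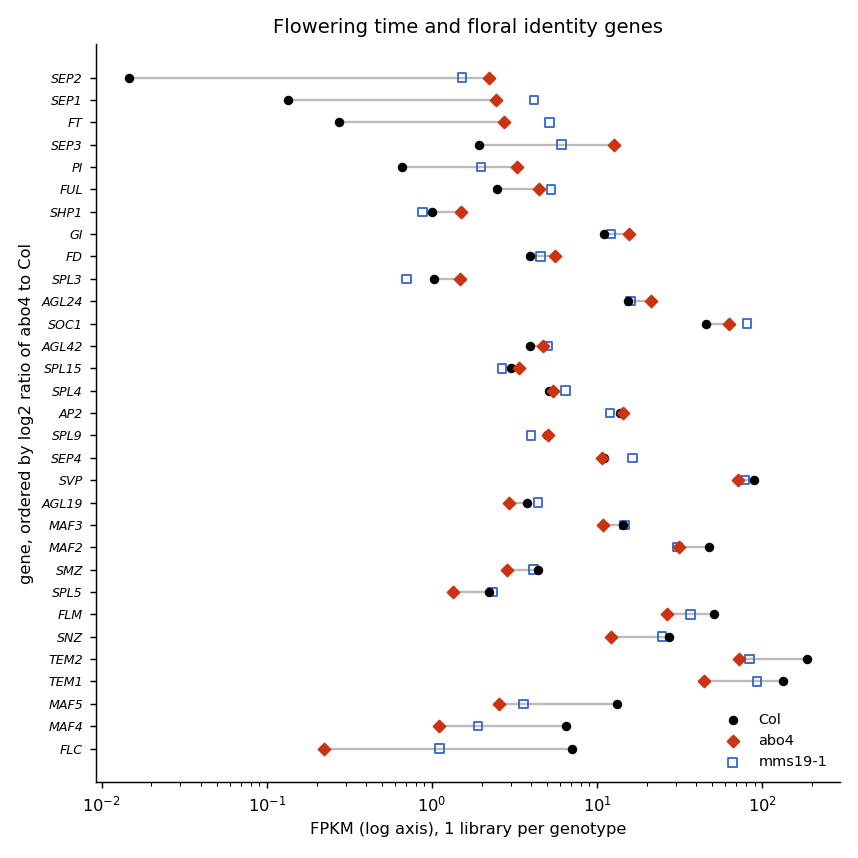
FPKM (horizontal, log axis) of the 31 well-measured flowering time and floral identity genes in Col (black circles), abo4 (red diamonds) and mms19-1 (open blue squares), ordered by the log2 ratio of abo4 to Col. SEP2, SEP1 and FT at the top go from below 0.3 FPKM in Col to above 2 FPKM in abo4, and TEM1, MAF5, MAF4 and FLC at the bottom lie left of Col.

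The most marked pattern among the lower genes concerned the sequence of the transcript. Long coding sequences rich in purines (A and G on the coding strand) were lower in abo4. The limits of 1800 nt and 60% purines were chosen after the values were seen, so the group is described and not tested. It holds 105 well-measured genes, of which 104 were below the wild type and 40 were over 2-fold lower (38.1%), with 0 over 2-fold higher and a median log2 ratio of -0.74. The other 3942 genes with a coding sequence over 1800 nt had a median of -0.05, and 25 of them (0.634%) were over 2-fold lower. The 690 shorter purine-rich genes had a median of -0.13 and 37 of them (5.36%) were lower. The 40 genes make up 10.7% of all 375 lower genes.

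The difference was larger at higher purine shares, and most so where the coding sequence was long. Over 2400 nt, the 234 genes with up to 50% purines had a median log2 ratio of 0.02. The median was -0.06 for the 1276 genes with 50 to 55%, -0.22 for the 307 genes with 55 to 57.5%, and -0.38 for the 102 genes with 57.5 to 60%. It was -0.95 for the 32 genes with 60 to 62.5%, of which 16 were over 2-fold lower. For the 15 genes with over 62.5% it was -2.06, and all 15 were over 2-fold lower, with ratios between -3.02 and -1.10. At coding lengths up to 1200 nt the 269 genes with over 62.5% purines had a median of -0.15, and of 1200 to 2400 nt the 49 such genes had -0.69. Spearman's rho between purine share and log2 ratio, across genes of the same 2 libraries and with no test, was -0.40 for the 1966 genes over 2400 nt and -0.13 for the 10245 genes up to 1200 nt.

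In the mms19-1 library the medians of these groups stayed near 0. Its median log2 ratio to the same Col library was -0.09 for the 105 genes, where 0 were over 2-fold lower, and -0.10 for the 15 genes of over 2400 nt with over 62.5% purines. Whether they belong to the genotype or to this library cannot be told apart.

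**Figure D4:**
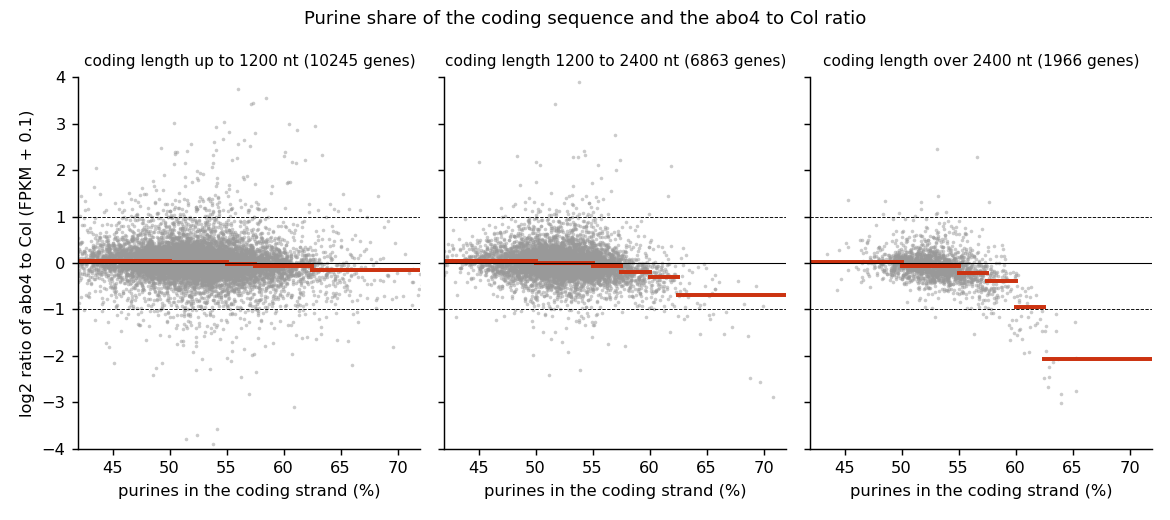
Log2 ratio of abo4 to Col (vertical, FPKM + 0.1) against the share of purines in the coding strand (horizontal, %), 1 point per well-measured gene with a coding sequence, in 3 classes of coding length. Red bars are medians within a range of purine shares and dashed lines are 2-fold. Genes outside the drawn range are not shown. In the class over 2400 nt the medians go from 0.02 on the left to -2.06 on the right.

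Members of several kinds were found in this group. CIP1, a long coiled-coil protein found through its binding to the photomorphogenesis repressor COP1, was at 52.1 FPKM in Col, 6.35 FPKM in abo4 and 47.7 FPKM in mms19-1 (8.20-fold lower in abo4, 7.79 to 8.64). LINC1, a lamina-like protein under the nuclear envelope, was at 58.7, 13.4 and 54.7 FPKM in the same order. Its relatives LINC2, LINC3 and LINC4 had log2 ratios in abo4 of -2.46, -2.04 and -1.34, so that all 4 genes of this family were over 2-fold lower. The DEK-domain chromatin protein genes AT4G26630 and AT5G55660 were at 166 and 29.9 FPKM and at 65.6 and 11.1 FPKM in Col and abo4. TTN8, a cohesin subunit of the SMC family, was at 23.2 and 7.37 FPKM, and KTF1, an SPT5-like factor of RNA-directed DNA methylation, was at 13.02 and 6.31 FPKM.

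Not every member was low. PPI1, a proton pump interactor, was at 129 FPKM in Col and 127 FPKM in abo4 with a coding sequence of 1839 nt and 61.7% purines, and AT1G75150 was the 1 member above the wild type, at 3.13 and 4.44 FPKM. To show what such sequences look like, the stretch of 90 bases with the most purines within 1 exon is printed for 4 lower genes and for ABO4, whose coding sequence of 6486 nt has 54.2% purines. The coding strand is given and runs of 10 or more purines are in capitals, from the RefSeq TAIR10.1 genome.
CIP1, chr5:16732134-16732223, plus strand: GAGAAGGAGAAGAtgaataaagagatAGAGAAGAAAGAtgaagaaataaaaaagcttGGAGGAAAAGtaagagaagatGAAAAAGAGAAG
LINC1, chr1:25153452-25153541, minus strand: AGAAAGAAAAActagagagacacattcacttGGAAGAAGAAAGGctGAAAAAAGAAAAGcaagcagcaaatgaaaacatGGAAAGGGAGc
AT4G26630, chr4:13432009-13432098, minus strand: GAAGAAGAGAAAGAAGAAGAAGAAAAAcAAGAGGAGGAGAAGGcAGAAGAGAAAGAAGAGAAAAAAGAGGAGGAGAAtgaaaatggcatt
RAD50, chr2:13606521-13606610, plus strand: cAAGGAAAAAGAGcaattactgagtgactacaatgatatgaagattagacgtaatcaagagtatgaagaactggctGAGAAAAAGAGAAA
ABO4, chr1:2600304-2600393, plus strand: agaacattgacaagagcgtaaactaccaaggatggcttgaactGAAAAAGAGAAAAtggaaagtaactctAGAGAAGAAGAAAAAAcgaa
The stretches hold 80 purines for CIP1, 71 for LINC1, 83 for AT4G26630, 65 for RAD50 and 67 for ABO4. The richest stretch of ABO4 is thus close to that of RAD50, while the whole coding sequences differ, at 54.2% and 60.1% purines.

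Some defence genes of the salicylic acid pathway were higher in abo4. Of 18 well-measured genes 5 were over 2-fold higher, beside 1.92% of all genes, 0 were lower and 13 stayed within 2-fold. A positive ratio was seen at 16 of them, and the median was 0.36. PR1, the standard marker of systemic resistance, was at 7.09 FPKM in Col and 43.7 FPKM in abo4 (6.17-fold, 5.43 to 7.05). SARD1, a transcription factor that drives salicylic acid synthesis, was at 2.53 and 6.32 FPKM, and WRKY54 and WRKY38, WRKY factors of this pathway, were at 1.38 and 3.84 FPKM and at 0.571 and 2.21 FPKM. WRKY38 was below 1 FPKM in Col and passed the filter through the mutant libraries, so the count of 5 does not describe the whole list. PAD3, the last enzyme of camalexin synthesis, was at 2.12 and 6.05 FPKM. The synthesis enzyme ICS1 and the receptor NPR1 differed little, at 14.3 and 17.8 FPKM and at 14.5 and 15.8 FPKM, and WRKY70 was the lowest member, at 77.0 and 42.4 FPKM. Outside the list, LURP1 and PCC1, both induced during pathogen attack, were at 9.29 and 59.5 FPKM and at 3.08 and 25.7 FPKM. In mms19-1 PR1 was at 1.54, LURP1 at 3.54 and PCC1 at 1.48 FPKM, all below Col.

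Jasmonate genes differed less. Of 22 well-measured genes 3 were higher, beside 1.92% of all genes, and 0 were lower. The 3 genes are JAZ repressors of jasmonate signalling. JAZ8 was at 0.594 FPKM in Col and 2.46 FPKM in abo4, JAZ7 at 1.66 and 4.72 FPKM and JAZ5 at 3.49 and 8.58 FPKM. JAZ8 was below 1 FPKM in Col and passed the filter through the mutant libraries, so the count of 3 does not describe the whole list. The synthesis gene AOS, at 80.9 and 62.6 FPKM, and the regulator MYC2, at 45.01 and 36.6 FPKM, were below the wild type within 2-fold. CORI3, at 52.8 and 38.5 FPKM, was the lowest member.

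Genes that respond within minutes to touch, wounding or cold went in both directions. Of 20 well-measured genes 3 were higher and 3 were lower, beside 3.81% of all genes past 2-fold in either direction. RRTF1, an ERF factor that amplifies reactive oxygen signals, was at 0.257 FPKM in Col and 4.09 FPKM in abo4 (15.9-fold, 9.75 to 27.8), and DDF1, of the CBF family, was at 0.451 and 5.81 FPKM. WRKY18 was at 4.88 and 17.3 FPKM. WRKY33, a regulator of camalexin synthesis, was at 144 and 54.996 FPKM, WRKY40 at 34.4 and 16.0 FPKM, and TCH4, a touch-induced cell wall enzyme, at 204 and 90.6 FPKM. RRTF1 and DDF1 were below 1 FPKM in Col, and at 0.330 and 0.0671 FPKM in mms19-1. They passed the filter only through the abo4 library, where they are higher, so the count of 3 does not describe the whole list. The 3 higher members were below 5 FPKM in Col and the 3 lower ones above 30 FPKM. Col levels are part of the ratios that sorted these genes.

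Abscisic acid and cold acclimation genes were mostly below the wild type. Of 25 well-measured genes 22 had a negative ratio, beside 10273 of all 19771 genes, and the median log2 ratio was -0.60. Over 2-fold lower were 3 of them, beside 1.9% of all genes, and 0 were higher. RAB18, a dehydrin, was at 129 FPKM in Col and 40.5 FPKM in abo4 (3.17-fold lower, 3.00 to 3.36), and RD26, a NAC factor of the dehydration response, was at 30.1 and 10.11 FPKM. RD29B was at 6.36 and 3.03 FPKM, and its coding sequence is among the long purine-rich ones. The phosphatases ABI1 and ABI2, negative regulators of the pathway that are themselves induced by abscisic acid, were at 69.3 and 40.3 FPKM and at 14.4 and 7.36 FPKM. ERD10, a dehydrin of the cold response, was the highest member at 230 and 330 FPKM. In mms19-1, RAB18 was at 222 and RD29B at 46.3 FPKM.

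Of 14 well-measured clock genes 5 were lower and 0 were higher, beside 1.9% and 1.92% among all genes, and 9 stayed within 2-fold. CCA1 and LHY, the paired MYB repressors of the central loop, were at 86.2 and 39.4 FPKM and at 59.2 and 25.9 FPKM in Col and abo4. RVE1 and RVE8, of the same MYB family, were at 32.7 and 7.51 FPKM and at 61.0 and 24.8 FPKM, and CDF1, a DOF repressor of CO and FT, was at 49.4 and 21.1 FPKM. The evening gene TOC1, at 9.30 and 11.3 FPKM, and LUX, at 5.63 and 6.86 FPKM, were above the wild type within 2-fold, as was PRR5 at 1.28 and 1.77 FPKM. The labels give no hour of harvest. In mms19-1 CCA1 was at 90.02 and LHY at 48.2 FPKM.

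Of 11 well-measured leaf epidermis and trichome markers 3 were lower, beside 1.9% of all genes, and all 3 are genes of trichome patterning. GL1, the MYB factor that starts trichome fate, was at 2.51 FPKM in Col and 0.708 FPKM in abo4 (3.54-fold lower, 2.29 to 5.67). GL2, the homeodomain factor downstream of GL1, was at 7.50 and 2.61 FPKM, and TRY, an inhibitor of trichome fate in neighbouring cells, was at 7.52 and 3.56 FPKM. MYB23, a relative of GL1 outside the list that was picked after its value was seen, was at 7.44 and 1.73 FPKM. The other 8 markers stayed within 2-fold. TTG1, which also acts in trichome patterning, was at 23.4 and 23.6 FPKM, ATML1 and PDF1 of the epidermal layer had log2 ratios of -0.11 and 0.04, and the stomatal genes SPCH and TMM had 0.06 and 0.01. In mms19-1 GL1 was at 3.79 and GL2 at 6.86 FPKM.

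The listed iron genes as a whole showed no common direction, with 9 above and 9 below the wild type. Of 18 well-measured genes 2 were lower and 1 was higher, beside 1.9% and 1.92% of all genes. BHLH101 and BHLH100, factors that are induced by iron deficiency, were at 21.1 and 6.48 FPKM and at 12.2 and 4.67 FPKM in Col and abo4. Their relatives BHLH38 and BHLH39 had log2 ratios of -0.92 and -0.76, so these bHLH genes all stood below the wild type. NAS2, a nicotianamine synthase, was at 1.32 and 4.35 FPKM. The uptake genes IRT1, at 14.5 and 17.5 FPKM, and FRO2, at 2.94 and 3.32 FPKM, and the ferritin FER1, at 132 and 128 FPKM, lay close to equality.

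Among sugar starvation and senescence genes 3 of 9 were higher and 2 were lower, beside 1.92% and 1.9% of all genes. DIN2, a beta-glucosidase induced in the dark, was at 1.26 FPKM in Col and 7.12 FPKM in abo4, and DIN10, a raffinose synthase, was at 16.2 and 40.6 FPKM. SAG13 was at 1.68 and 3.88 FPKM. The NAC regulators of leaf senescence NAP and ORE1 were lower, at 90.7 and 33.7 FPKM and at 44.0 and 20.8 FPKM. Members of this list that are markers of the same condition therefore stood on both sides.

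The lists of silencing factors, glucosinolate genes and auxin genes each held 1 member past 2-fold, of 21, 21 and 12 well-measured genes. Among all genes the share past 2-fold in either direction was 3.81%. DML2, a DNA demethylase, was at 6.46 FPKM in Col and 2.81 FPKM in abo4, and the 20 other listed silencing factors stayed within 2-fold. Among them were the maintenance methyltransferase MET1 at 15.8 and 26.9 FPKM, CMT3 at 13.1 and 24.6 FPKM, and the demethylase ROS1 at 27.5 and 21.7 FPKM. Outside this list, KTF1 and the XH/XS domain gene FDM2 were over 2-fold lower. They were at 13.02 and 6.31 FPKM and at 10.34 and 4.56 FPKM in Col and abo4. ESM1, a modifier of glucosinolate breakdown, was at 833 and 187 FPKM (4.46-fold lower, 4.38 to 4.54), and at 318 FPKM in mms19-1. The other 20 glucosinolate genes had log2 ratios between -0.45 and 0.56. IAA5, an auxin-induced repressor, was at 1.93 and 4.80 FPKM.

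In 11 lists with 119 well-measured members no gene passed 2-fold, beside 3.81% of all genes past 2-fold in either direction. The lists were grouped because no member passed. Among them were the replicative polymerases, Polycomb genes, photosystem and Rubisco genes, flavonoid and anthocyanin genes, heat shock genes and cytosolic Fe-S assembly genes. The others were phosphate and nitrate genes, reference genes, and markers of roots, of the shoot meristem and of seeds. Only 9 of 18 listed heat shock genes, 7 of 13 seed markers and 4 of 9 shoot meristem and boundary markers were well-measured. The seed storage and oleosin markers stood furthest from 0, with a median log2 ratio of -0.78 over 7 genes and CRA1, a seed storage protein, lowest at 10.13 and 5.03 FPKM. With a pseudocount of 0.01 FPKM 3 of these 7 genes were over 2-fold lower. Reference genes had a median log2 ratio of 0.05, with ACT2 at 282 FPKM in Col and 270 FPKM in abo4 and UBQ10 at 1047 and 980 FPKM. Photosystem and Rubisco genes, which mark green tissue, had log2 ratios between -0.13 and 0.47 and a median of 0.15, and root markers summed to 1101 FPKM in Col and 1201 FPKM in abo4. MMS19 was at 10.14 and 9.01 FPKM in Col and abo4, and at 0.228 FPKM in mms19-1. Polycomb genes, among them CLF at 8.98 and 10.6 FPKM and LHP1 at 14.9 and 12.7 FPKM, had a median of -0.07. Flavonoid genes had 14 of 17 members below the wild type, with a median of -0.29 and F3H lowest at 26.5 and 16.9 FPKM.

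**Figure D5:**
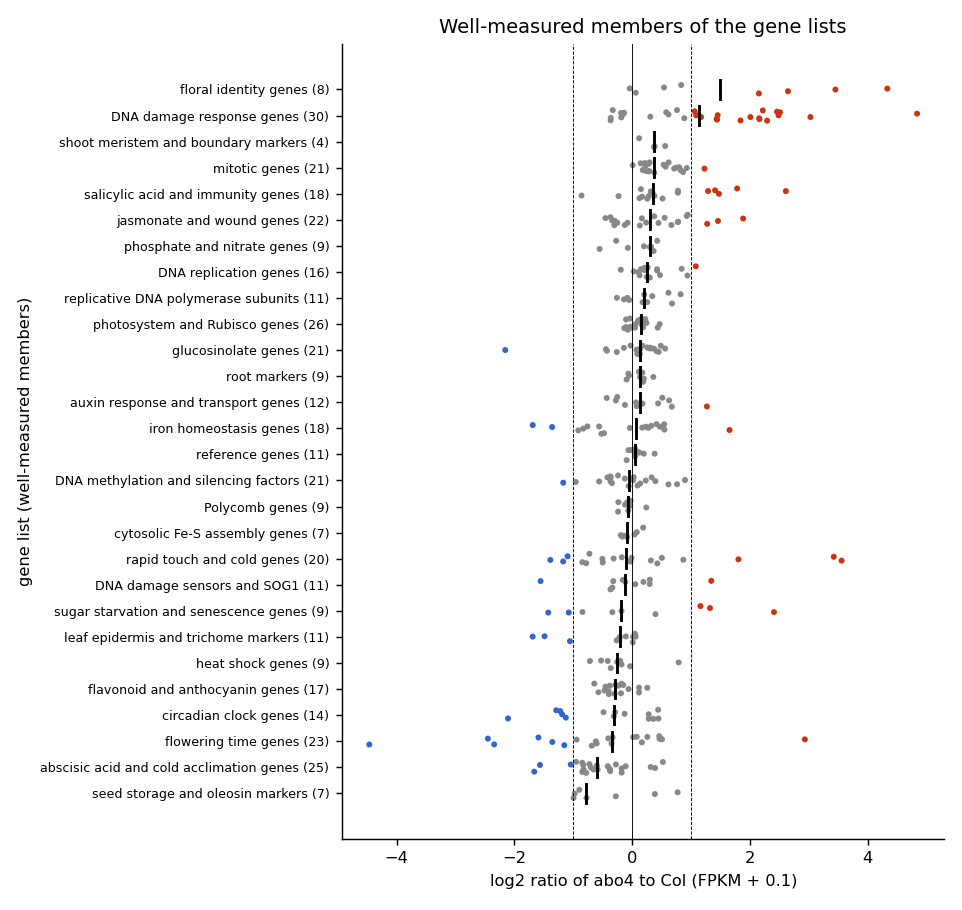
Log2 ratio of abo4 to Col (horizontal, FPKM + 0.1) of every well-measured member of 28 gene lists, with the number of members in brackets and the lists ordered by their median. Red points are over 2-fold higher, blue points over 2-fold lower, and black bars are medians. The highest medians are those of the floral identity genes, 1.49 over 8 genes of which 3 passed the filter only through the mutant libraries, and of the DNA damage response genes, 1.13. The lowest are those of the seed storage and oleosin markers, -0.78, and of the abscisic acid genes, -0.60. Points are spread vertically within a list only for legibility.

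Several of the genes furthest from the wild type carry a locus code only, or a name outside these lists. AT2G18193, of the P-loop nucleoside triphosphatase superfamily, was at 1.74 FPKM in Col and 47.6 FPKM in abo4 (27.3-fold, 23.3 to 32.1), and AT5G60250, a RING finger protein, was at 1.71 and 19.3 FPKM. AT4G22960 was at 0.581 and 10.02 FPKM, and AT3G28500, an acidic ribosomal protein, was at 0.455 and 9.34 FPKM. The MADS-box genes AT1G59930 and AT1G59920 lie next to each other and were at 0.823 and 15.7 FPKM and at 0.0914 and 5.16 FPKM, and as close copies they may share reads. RTFL7, a small peptide of the ROTUNDIFOLIA family, was at 1.38 and 10.14 FPKM, and TIM17-1, a mitochondrial import subunit, was at 0.369 and 2.65 FPKM.

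A few genes were present in Col and mms19-1 and close to 0 in abo4, or the reverse. GLC, an acyltransferase gene, was at 3.13 FPKM in Col, 0.0202 FPKM in abo4 and 2.88 FPKM in mms19-1. It lies on chromosome 1 at lower coordinates than FAS1 and FT (GLC at chr1:24315722-24319092 and FT at chr1:24331373-24333999, TAIR10.1). FAS1, which lies between GLC and FT, was at 7.98 and 6.96 FPKM in Col and abo4. AT5G33370, a GDSL lipase, was at 11.5, 0.252 and 15.4 FPKM in Col, abo4 and mms19-1. ZIP7, a zinc transporter, was at 2.29 FPKM in Col and listed at 0 in abo4. PAO2, a polyamine oxidase, stood the other way, at 0.0117 FPKM in Col, 7.89 FPKM in abo4 and 0.0212 FPKM in mms19-1.

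Other named genes were lower in abo4 alone or in both mutants. HSFA6A, a heat stress transcription factor, was at 17.3 FPKM in Col and 1.93 FPKM in abo4 (8.96-fold lower, 7.12 to 11.4), with a coding sequence of 849 nt and 60.9% purines, and was at 19.9 FPKM in mms19-1. OXS3, a gene of oxidative stress tolerance, was at 66.7 and 13.5 FPKM. CYP86A7, a cytochrome P450 of the fatty acid hydroxylase family, was at 1.67 and 0.232 FPKM. CYCB1;5, annotated as a B-type cyclin, was at 3.21 FPKM in Col, 0.569 FPKM in abo4 and 0.677 FPKM in mms19-1. The higher and lower genes were thus not only members of known pathways.

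The genes past 2-fold were spread over the 5 chromosomes. The share of higher genes ran from 1.54% on chromosome 4 to 2.19% on chromosome 2, and the share of lower genes from 1.67% on chromosome 4 to 2.12% on chromosome 2. In windows of 1 Mb with at least 20 well-measured genes, the median log2 ratio lay between -0.15 and 0.18 in all 111 windows. Neighbouring genes past 2-fold in the same direction occurred in 37 places, 17 higher and 20 lower, and never more than 2 in a row. Such pairs include MAF4 with MAF5, SMR7 with the alternative oxidase gene AOX1C, and PI with DIN10. The window with the largest share of higher genes, 11.5%, was from 3 to 4 Mb of chromosome 2, with 7 of 61 genes. It also had the highest median, 0.18. The source of the reads in this window was not tested. The handling of reads with several alignments is not given, and all 279 organelle genes are listed at 0.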

How the data were processed

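Poly(A) RNA of seedlings was sequenced in 3 libraries, 1 per genotype. Per the labels and the methods, the authors aligned reads to TAIR10 with TopHat2 2.0.12 and Bowtie, and deposited FPKM values per gene from Cufflinks 2.0.1 and Cuffdiff. The handling of reads with several alignments is not given in the sources used here. FPKM were used as deposited. The 279 organelle genes are at 0 in every library, so an exact 0 is given only as listed at 0.

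Of several entries at a locus the one with the larger mean was kept, leaving out 574 of 34133 entries. Ratios are log2 of FPKM + 0.1, which understates the change of weakly expressed genes. Reads per gene were estimated from FPKM, library size and effective transcript length in the RefSeq TAIR10.1 annotation (fragment length set to a mean of 200 nt with an SD of 80 nt, and no shorter than 49 nt), for 19697 of the 19771 genes. Ratios carry 95% exact intervals for counting error on these estimates. Positions of 746 genes printed with the study overlapped the annotation at all 746. Coding composition was taken from the longest annotated coding sequence of a gene.

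Genes named were taken from the 15 highest and 15 lowest ratios among well-measured genes with a symbol and at least 50 estimated reads, the polymerase genes and MMS19, genes of the primer list, and from each of 29 gene lists (477 genes) the extreme members and up to 4 others. Genes with a locus code only, MYB23, BT1, BT2, BT5, AOX1C, the purine-rich genes and list members named beyond that number (such as those of the DNA damage response, flowering, floral identity, trichome, clock and iron lists) were picked after their values were seen. The gene set, the lists and the rules were chosen with earlier results of these data known. Individual values of 2 DNA damage response genes are not reported here. The alternatives were other pseudocounts, filters, entries, scaling, limits and gene classes. The calculation was tested on simulated data. Python 3.11.15, pandas 2.3.3, numpy 2.4.6, scipy 1.17.1 and matplotlib 3.10.9 were used.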

Additional observations from a re-analysis of the deposited data

How the results depend on the processing

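With a pseudocount of 1 FPKM, 247 genes were over 2-fold higher and 273 lower. Without a filter on low values, 1021 of 25919 loci were higher and 682 lower. Raising the filter to 5 FPKM left 155 of 15248 genes that were higher and 248 lower, and past 4-fold there were 105 and 101. Under the other alternatives (a pseudocount of 0.01, the mean taken over Col and abo4 only, at least 1 FPKM in both, summed entries, centring on the median, and at least 50 estimated reads) the counts lay between 258 and 404 higher and between 259 and 398 lower. The 3 alternatives chosen after the data were examined gave 325 higher and 298 lower for protein-coding genes, 379 and 335 without the long purine-rich genes, and 305 and 299 for transcripts of at least 300 nt. The 17 higher DNA damage response genes became 15 with a pseudocount of 1 FPKM, and their median 0.96. With that pseudocount the median of the floral identity genes was 1.01, DML2 and IAA5 were within 2-fold, and PAO2 had a log2 ratio of 3.14 and FLC -2.71. The log2 ratio of GR1 was 0.74, under the limit. The ratio of 53 of 75 named genes left the counting interval of the FPKM ratio, and that of 22 did not. A pseudocount cannot turn the sign of a ratio. With a pseudocount of 0.01 FPKM, 3 of the 7 seed storage and oleosin markers were lower, with a median of -0.99, and with 1 FPKM 0 were lower, with a median of -0.23. No paired analysis was possible because each genotype has 1 library, and for the same reason no replicate could be left out. A value at a gene of few reads is limited by depth, and 56 of the higher and 53 of the lower genes had under 50 estimated reads in both libraries together.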

Other observations

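Short transcripts, coding and non-coding, were common among the genes past 2-fold. Transcripts under 300 nt made up 17.9% of the 379 higher genes and 16.5% of the 375 lower genes, beside 1.50% of all well-measured genes. The higher genes held 15 microRNA genes and the lower ones 20, and each direction held 13 small nucleolar RNA genes, out of 80 and 59 such genes among all 19771 well-measured ones. The precursor of miR156a was at 266 FPKM in Col, listed at 0 in abo4 and at 320 FPKM in mms19-1, and that of miR156b was at 61.0 FPKM in Col and listed at 0 in both mutants. MIR161 was listed at 0 in Col and at 37.3 FPKM in abo4, and MIR852 was at 15.3 FPKM in Col and listed at 0 in abo4. No ratio is given for these precursors, since 1 of the libraries lists them at 0. The class under 300 nt is set by length and includes protein-coding loci such as AT1G61165 (221 nt). Transcripts such as those of miR156a (123 nt) and MIR852 (208 nt) are near or below the 200 nt mean set for fragments. Their FPKM divide by a small effective length and are uncertain, so a change in these RNAs cannot be read from them.

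The genes BT1, BT2 and BT5, which encode BTB and TAZ domain proteins, were all lower, a group picked after its values were seen. BT1 was at 42.3 FPKM in Col and 14.7 FPKM in abo4, BT2 at 78.1 and 23.9 FPKM, and BT5 at 32.6 and 11.6 FPKM.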
